A study of Mus musculus with 2 samples.

Results

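The transcripts examined were those of 42 genes of central carbon metabolism: 22 glycolytic genes, 6 genes of pyruvate entry into the mitochondrion and 14 genes of the tricarboxylic acid (TCA) cycle. They were chosen by gene symbol as members of these pathways, and all 42 were found among the 31017 gene symbols of the deposited tables. The cells were immature γδ T cells, marked by the surface protein CD24, from wild-type C57BL/6 mouse fetal thymic lobes taken at embryonic day 15 and kept for 2 days in culture without treatment. TMRE, a dye drawn into mitochondria by the potential across their membrane, was used to sort them by brightness, and the brighter cells are called TMREhi here and the dimmer cells TMRElo. Both sorts gave 1 single-cell library, made with the 10x Chromium 5′ kit. Both fractions share strain, genotype, age and culture, the number of embryos behind each library is not given in the labels, and isolated cultured lobes have no supply of new progenitors from the fetus.

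Glycolysis splits glucose into pyruvate in the cytosol and yields a little ATP, and lactate dehydrogenase can turn that pyruvate into lactate, which leaves the cell through monocarboxylate transporters. Alternatively the mitochondrial pyruvate carrier takes pyruvate into the mitochondrion, the pyruvate dehydrogenase complex makes acetyl-CoA from it, and the TCA cycle oxidises that acetyl group to feed the respiratory chain that maintains the membrane potential. Proliferating thymocytes are known for strong glycolysis, and γδ T cells that make IL-17 and those that make interferon-γ are known to differ in their use of glucose and of mitochondrial oxidation.

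Promoters are shown for 4 glycolytic genes that hold a motif of the hypoxia response. The display follows the motif and not the expression differences: of these genes only Pgam1 passed the limit between the sorted fractions, and Gapdh, Tpi1 and Pfkp, which also passed it, did not hold the motif. ACGTG is the core of the hypoxia response element bound by HIF factors, which are known to drive glycolytic genes. The letters ACGTG or their reverse complement CACGT stood in the 250 bases before the start site in 9 of the 21 glycolytic genes with a RefSeq promoter (42.9%), in 2 of 6 pyruvate entry genes and in 3 of 13 TCA genes, against 16.6% of 27025 mouse promoters. In the sequences (RefSeq, GRCm38.p6, 5′ to 3′ on the gene's strand) capitals mark these letters, which were chosen for display with the expression values known.
Pgk1: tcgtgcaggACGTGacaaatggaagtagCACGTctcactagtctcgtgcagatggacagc
Pgam1: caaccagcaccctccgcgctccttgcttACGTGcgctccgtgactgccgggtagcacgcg
Ldha: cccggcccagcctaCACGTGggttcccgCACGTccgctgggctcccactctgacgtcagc
Hk2: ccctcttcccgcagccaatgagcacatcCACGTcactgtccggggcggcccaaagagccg
The Pgk1 stretch (phosphoglycerate kinase) is chrX:106186941-106187000, plus strand, 159 to 100 bases before the start. The Pgam1 stretch (phosphoglycerate mutase) is chr19:41911729-41911788, plus strand, 142 to 83 bases before it. The Ldha stretch (lactate dehydrogenase A) is chr7:46845742-46845801, plus strand, 62 to 3 bases before it, and lies within the wider span that GENCODE gives this gene but in none of its exons. The Hk2 stretch (hexokinase 2) is chr6:82774475-82774534, minus strand, 80 to 21 bases before it. The 6-letter E-box CACGTG, which overlaps both forms of this motif, stood in Ldha, Pfkm and Slc16a1 of the glycolytic genes, in Pcx of pyruvate entry and in none of the 13 TCA genes, against 6.05% of all promoters. CCAAT (either strand) stood in 8 of 13 TCA genes and in 6 of 21 glycolytic genes, against 34.5% of all promoters. GGGCGG stood in 13 of 21 glycolytic, 5 of 6 pyruvate entry and 8 of 13 TCA genes, against 32.9%, and TATAAA in none of the 40 matched members, against 13.0%. A match describes letters and says nothing of a factor's binding.

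The files held 1202 TMREhi and 196 TMRElo barcodes, with 0 barcodes shared. Barcodes with at least 500 genes and at most 10% mitochondrial UMIs were retained, 317 in TMREhi with 2905666 UMIs and 34 in TMRElo with 105080 UMIs, and their median depths were 7465 and 1679 UMIs. The deepest 5 barcodes held 4.70% of the retained TMREhi UMIs and 44.0% of the TMRElo UMIs, so single barcodes weigh heavily in TMRElo. Markers of γδ T cells were detected in both libraries (8 of 8 in TMREhi and 7 of 8 in TMRElo, where Cd24a was at 0), 6 erythroid markers were at 0 in both, and markers of αβ lineage thymocytes summed to 302 UMIs per 1000000 UMIs (CPM) in TMREhi and 200 CPM in TMRElo. Myeloid markers summed to 223 CPM in TMREhi and 238 CPM in TMRElo, thymic epithelial markers to 33.4 and 85.6 CPM and B cell markers to 24.4 and 19.0 CPM. Among barcodes with at least 500 genes and any mitochondrial share, 733 in TMREhi and 117 in TMRElo had under 15% of their UMIs from ribosomal protein genes (low-ribosomal), and 292 and 16 had more (high-ribosomal). With 1 library per fraction there was no replicate of any comparison: no test was made, and every interval is a 95% interval that covers counting error only.

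TMREhi had more glycolytic and pyruvate entry transcript, relative to all UMIs, than TMRElo, while the TCA interval held equality. Glycolytic members summed to 6977 CPM in TMREhi and 5367 CPM in TMRElo, a ratio of 1.30 (1.196–1.416). Pyruvate entry members summed to 428 and 286 CPM (1.498, 1.04–2.23), and TCA members to 1410 and 1218 CPM (1.16, 0.970–1.39). Without the 5 deepest barcodes of each library the pyruvate entry log2 ratio was 0.25 (-0.37 to 0.94) in place of 0.58, so that the interval then held equality. Together the members held 0.881% of TMREhi UMIs and 0.687% of TMRElo UMIs. The median barcode stood at 5346 glycolytic CPM in TMREhi (quartiles 3330 and 7327) and at 3542 CPM in TMRElo (2083 and 5666), so the barcodes of the libraries overlapped widely.

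A member was counted as tested where its mean over both groups was at least 50 CPM, and as past the limit where the groups differed at least 1.5-fold with 1 CPM added to both. Of 10 glycolytic members tested, 3 were past the limit upward in TMREhi (Gapdh, Tpi1, Pgam1) and 1 downward (Pfkp), of 4 pyruvate entry members 1 was upward (Pdhb), and of 11 TCA members 4 were upward (Idh2, Idh3a, Suclg1, Mdh1) and 2 downward (Ogdh, Dlst). Over all 3081 genes tested, 17.8% were past the limit upward and 35.1% downward, with a median log2 ratio of -0.20. The medians of the tested members were 0.38 for the glycolytic, 0.49 for the pyruvate entry and -0.04 for the TCA genes.

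By role, the sums of the later steps of glycolysis stood apart from equality and those of the earlier steps did not, with Gapdh weighing most. The genes of lower glycolysis, from glyceraldehyde-3-phosphate to pyruvate, summed to 4591 CPM in TMREhi and 3397 CPM in TMRElo (1.35, 1.22–1.51), and lactate production and export to 1039 and 761 CPM (1.36, 1.09–1.73). Gapdh held 7884 of the 13340 lower-glycolysis UMIs in TMREhi and 187 of the 357 in TMRElo. Of the other genes of that role, only Pgam1 had an interval that did not hold 1. The genes of upper glycolysis, from hexokinase to triose phosphate isomerase, summed to 1317 and 1171 CPM (1.13, 0.940–1.36), and the glucose transporters Slc2a1 and Slc2a3 to 30.6 and 38.1 CPM on 89 and 4 UMIs. Which of these steps differ from one another was not tested.

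Gapdh, the glyceraldehyde-3-phosphate dehydrogenase that opens the energy-yielding steps (chromosome 6, 125161715 to 125166467, minus strand, GENCODE vM21 on GRCm38), stood at 2713 CPM in TMREhi and 1780 CPM in TMRElo (1.52, 1.32–1.77). Gapdh held 38.9% of all glycolytic UMIs in TMREhi and 33.2% in TMRElo. Tpi1, the isomerase that brings both products of the aldolase step into one path, stood at 317 and 171 CPM (1.85, 1.16–3.13), with 33.3% of its 18 TMRElo UMIs in 1 barcode. Pgam1 stood at 301 and 190 CPM (1.58, 1.02–2.61). These enzymes were thus higher in TMREhi beyond counting error, while neighbouring steps were closer together. Pgk1 stood at 406 and 286 CPM (1.42, 0.990–2.12), and Ldha at 959 and 723 CPM (1.33, 1.06–1.69). Eno1, enolase, was near level at 565 and 590 CPM, and Gpi1, glucose-6-phosphate isomerase, at 314 and 305 CPM.

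Of the genes that bring glucose in and commit it to the pathway, only Pfkp passed the limit. Pfkp, the platelet isoform of phosphofructokinase, was lower in TMREhi at 31.3 against 104.7 CPM (0.299, 0.160–0.620), on 91 and 11 UMIs. Slc2a1, the basal glucose transporter, stood at 14.5 and 38.1 CPM (42 and 4 UMIs), Hk2, an inducible hexokinase, at 9.64 and 28.55 CPM (28 and 3 UMIs), and Pfkfb3, which makes an activator of phosphofructokinase, at 13.4 and 28.55 CPM (39 and 3 UMIs), all below the 50 CPM level and with intervals that held 1, as was Hk1, another hexokinase, at 20.3 and 19.0 CPM. Ldhb, the lactate dehydrogenase subunit that favours lactate use, was counted 129 times in TMREhi and 0 times in TMRElo. The counting interval of its ratio began at 1.25 and had no upper end. Its TMREhi level was 1.56 times a floor of 3 UMIs in TMRElo, which is not a lower limit of the ratio. The remaining glycolytic members below 50 CPM (Pfkl, Pfkm, Aldoc, Bpgm, Slc16a1, Slc16a3) stood between 4.47 CPM (Pfkm) and 39.2 CPM (Pfkl) in TMREhi, on at most 6 UMIs each in TMRElo. Pkm, the pyruvate kinase that ends the pathway, stood at 580 and 514 CPM (1.13, 0.861–1.51), within its counting error. Slc2a3, the high-affinity neuronal-type glucose transporter, had 47 and 0 UMIs, too few for a ratio, since 3 UMIs equal 28.55 CPM in TMRElo.

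**Figure D1:**
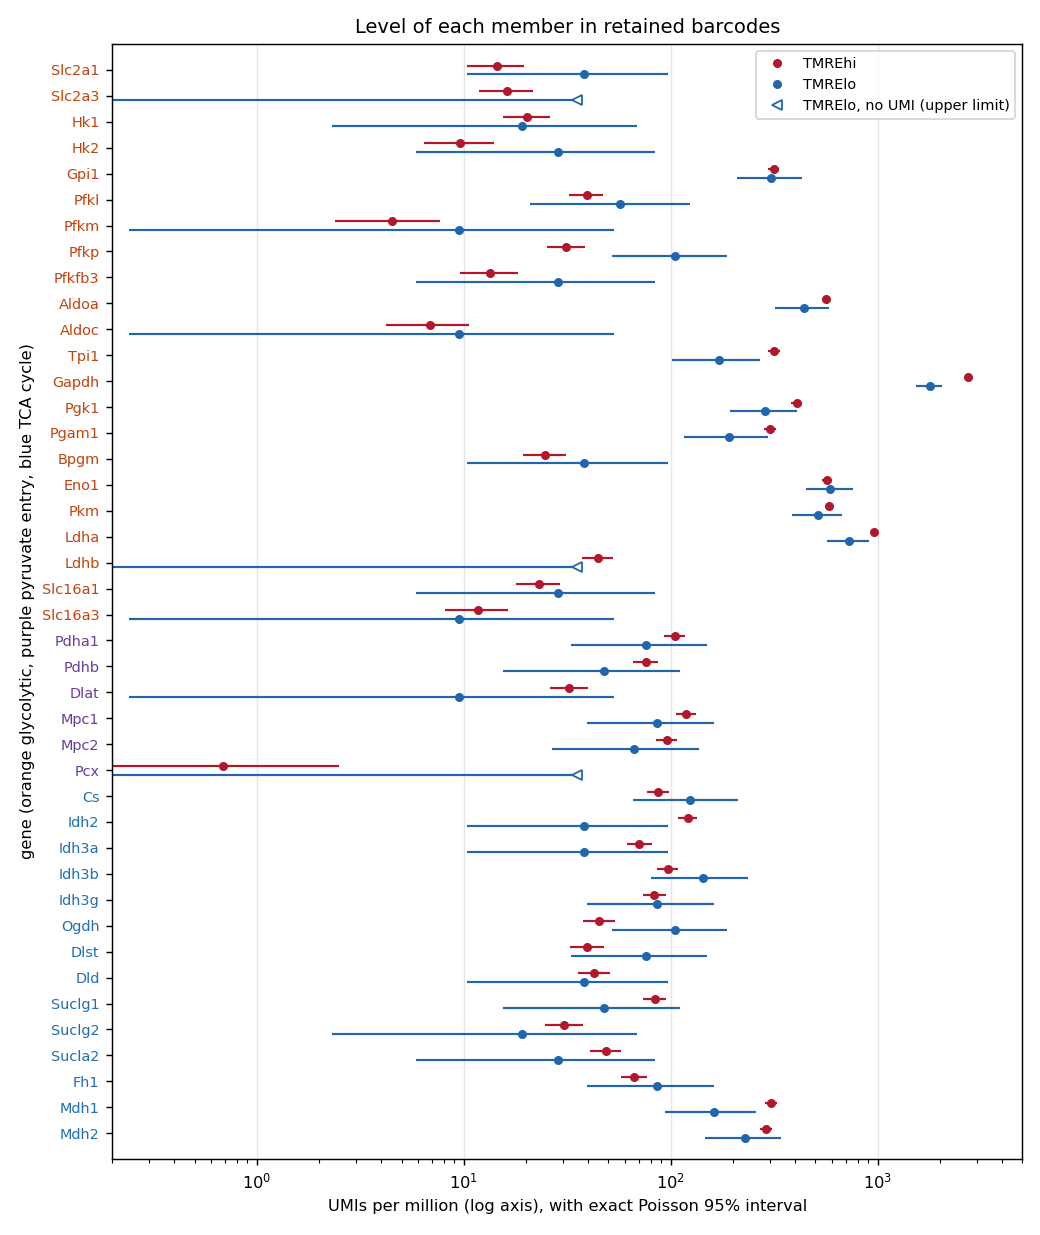
Level of each of the 42 members in retained barcodes of TMREhi (red, 317 barcodes) and TMRElo (blue, 34 barcodes), in CPM on a log axis with exact Poisson 95% intervals. Open triangles mark the upper limit where TMRElo had no UMI (Slc2a3, Ldhb, Pcx), and the wide blue bars show how few UMIs lie behind most TMRElo values.

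Among the genes of pyruvate entry, the 4 tested all stood higher in TMREhi on few TMRElo UMIs. Mpc1 and Mpc2, the subunits of the mitochondrial pyruvate carrier, stood at 119 and 95.7 CPM in TMREhi and at 85.6 and 66.6 CPM in TMRElo (9 and 7 UMIs). Pdha1 and Pdhb, subunits of the first enzyme of pyruvate dehydrogenase, stood at 105 and 75.7 CPM in TMREhi and at 76.1 and 47.6 CPM in TMRElo (8 and 5 UMIs). Each of these single-gene intervals held 1, and only their sum stood apart from equality. Dlat, the acetyltransferase core of pyruvate dehydrogenase, had 94 and 1 UMIs. Pcx, pyruvate carboxylase, had 2 UMIs in TMREhi and 0 in TMRElo.

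In the TCA cycle, over all retained barcodes, Idh2 and Mdh1 were higher in TMREhi and Ogdh lower. These 3 were the members past the limit whose intervals did not hold 1. Of these, only Mdh1 kept this in the low-ribosomal barcodes given below without those holding Rag1 and no γ V segment UMI. Idh2, the NADP-dependent mitochondrial isocitrate dehydrogenase (chromosome 7, 80094846 to 80115392, minus strand), had 351 UMIs in TMREhi and 4 in TMRElo, 121 against 38.1 CPM (3.17, 1.23–11.7). Mdh1, the cytosolic malate dehydrogenase of the malate-aspartate shuttle, stood at 306 and 162 CPM (1.89, 1.17–3.26). Ogdh, the first subunit of oxoglutarate dehydrogenase, was lower at 45.1 against 105 CPM (0.431, 0.233–0.884). Its partner Dlst stood at 39.6 and 76.1 CPM with an interval that held 1 (0.520, 0.255–1.23), and the third subunit Dld, which pyruvate dehydrogenase also uses, at 42.7 and 38.1 CPM. Mdh2, the malate dehydrogenase inside the mitochondrion, differed less than its counting error at 289 and 228 CPM (1.27, 0.846–1.99), as did citrate synthase (Cs) at 86.7 and 124 CPM (0.701, 0.403–1.33). The NAD-dependent isocitrate dehydrogenase subunits Idh3a, Idh3b and Idh3g stood at 70.6, 96.7 and 83.3 CPM in TMREhi and at 38.1, 142.8 and 85.6 CPM in TMRElo, each with an interval that held 1. The same held for fumarase (Fh1, 66.4 and 85.6 CPM) and for Suclg1, the shared subunit of succinyl-CoA ligase (83.6 and 47.6 CPM), while its partners Suclg2 and Sucla2 had 2 and 3 UMIs in TMRElo.

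The libraries differed in more than their TMRE sort, and these differences moved with the members. Low-ribosomal barcodes made up 14.8% of the retained TMREhi barcodes and 55.9% of the retained TMRElo barcodes, and barcodes with at least 1% of their UMIs in S and G2/M phase genes (cycling) made up 41.0% and 5.88%. Malat1, a nuclear RNA, stood at 2464 and 11448 CPM. The comparison was repeated within each ribosomal class, which does not level these measures between the libraries.

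Within low-ribosomal barcodes TMREhi had more glycolytic and TCA transcript over all depths, and less of a gap in glycolytic transcript among barcodes of similar depth. Glycolytic members summed to 3158 CPM in TMREhi and 2408 CPM in TMRElo (1.31, 1.17–1.47), TCA members to 1096 and 830 CPM (1.32, 1.09–1.62) and pyruvate entry members to 315 and 252 CPM (1.25, 0.882–1.83). Of 27 members tested, 9 were past 1.5-fold upward and 2 downward, against 19.1% and 24.7% of all genes tested. Gapdh stood at 612 and 215 CPM (2.85, 1.97–4.28), Pgk1 at 219 and 96.3 CPM (2.27, 1.31–4.32), Mdh1 at 135 and 51.9 CPM (2.60, 1.24–6.56) and Mdh2 at 120 and 44.5 CPM (2.71, 1.22–7.49). Slc16a1, a lactate and pyruvate transporter, stood at 97.5 and 37.0 CPM (2.63, 1.10–8.25). Lower glycolysis (1.62, 1.36–1.94) and lactate genes (1.68, 1.25–2.30) were higher in TMREhi, and upper glycolysis stood at 834 and 926 CPM (0.901, 0.748–1.09), with Pfkp at 109 and 207 CPM (0.525, 0.348–0.818) and Pfkfb3 at 27.4 and 74.1 CPM (0.370, 0.180–0.836).

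The low-ribosomal classes of the libraries differed in depth, with medians of 1555 and 1037 UMIs. In barcodes under 1000 UMIs the glycolytic sum was 2060 CPM (1819–2325) in TMREhi and 2146 CPM (1730–2632) in TMRElo. At 1000 to 2000 UMIs it was 2783 CPM (2637–2934) and 2504 CPM (2173–2872), and in both bands the intervals overlapped. Signs of RNA quality differed too, with Malat1 at 10796 CPM in TMREhi and 31725 CPM in TMRElo, ribosomal protein genes at 6.35% and 3.54% of UMIs and mitochondrial genes at 17.7% and 14.7%, and the part of these in the result was not tested.

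The TMREhi low-ribosomal barcodes were more often cycling (41.3% against 5.13%) and held more αβ lineage thymocyte transcript (1166 against 311 CPM over 7 markers, of which Rag2 and Ptcra were at 0 in TMRElo). Without the 159 TMREhi barcodes that held a Rag1 UMI and no γ V segment UMI, the glycolytic ratio was 1.34 (1.19–1.504) and the TCA ratio 1.29 (1.07–1.59), with 8 of 27 members past the limit upward and 3 downward, against 18.1% and 24.9% of all genes. In non-cycling low-ribosomal barcodes, 430 and 111, the ratios were 1.18 (1.04–1.34) for glycolytic and 1.205 (0.977–1.498) for TCA members, and the lactate genes stood at 453 and 375 CPM (1.21, 0.883–1.69). There 9 of 27 members were past the limit upward and 3 downward, against 15.4% and 20.9% of all genes.

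Within high-ribosomal barcodes the glycolytic sum was again higher in TMREhi, at 7010 against 5902 CPM (1.19, 1.09–1.30), the TCA sum stood at 1421 and 1292 CPM (1.10, 0.910–1.34) and the pyruvate entry sum at 424 and 273 CPM (1.55, 1.03–2.46). There 6 of 24 tested members were past the limit upward and 4 downward, against 16.6% and 25.7% of all genes. Idh2 had 356 UMIs in TMREhi and 1 in TMRElo (122 against 11.9 CPM, 10.3, 1.83–407). These barcodes hold most of the retained UMIs, so they repeat the first comparison more than they check it.

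In a narrower range of depth the glycolytic difference in this class turned around. Among high-ribosomal barcodes of 2000 to 10000 UMIs, 156 in TMREhi and 14 in TMRElo, glycolytic members summed to 5546 CPM in TMREhi and 6149 CPM in TMRElo (0.902, 0.818–0.997), and TCA members to 1216 and 1278 CPM (0.951, 0.768–1.19). The pyruvate entry log2 ratio there was 0.43 (-0.22 to 1.16). The range narrowed the gap in depth without closing it, with medians of 5555 and 4071 UMIs and cycling shares of 20.5% and 7.14%, and 5 barcodes held 55.2% of the TMRElo UMIs. The 10 tested glycolytic members were all within 1.5-fold there. Of all 23 tested members, 2 were past the limit upward (Pdha1, Mdh1) and 4 downward (Cs, Idh3b, Idh3g, Ogdh), against 13.4% and 26.5% of all genes. In TMREhi high-ribosomal barcodes the glycolytic sum stood at 5099 CPM (4819–5391) in barcodes of 2000 to 5000 UMIs, 5712 CPM (5531–5898) at 5000 to 10000, 7617 CPM (7475–7761) at 10000 to 20000 and 7844 CPM (7617–8076) above that, while the cycling share went from 13.6% to 100%. TMRElo stood at 6160 CPM (5383–7018) and 6138 CPM (5339–7022) in the first 2 of these bands and had 1 barcode beyond them. The excess of TMREhi in this class thus lay in deep barcodes that TMRElo hardly had. Depth and cycling went together there, with 75.5% of the barcodes cycling at 10000 to 20000 UMIs, and the part of each was not tested.

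**Figure D2:**
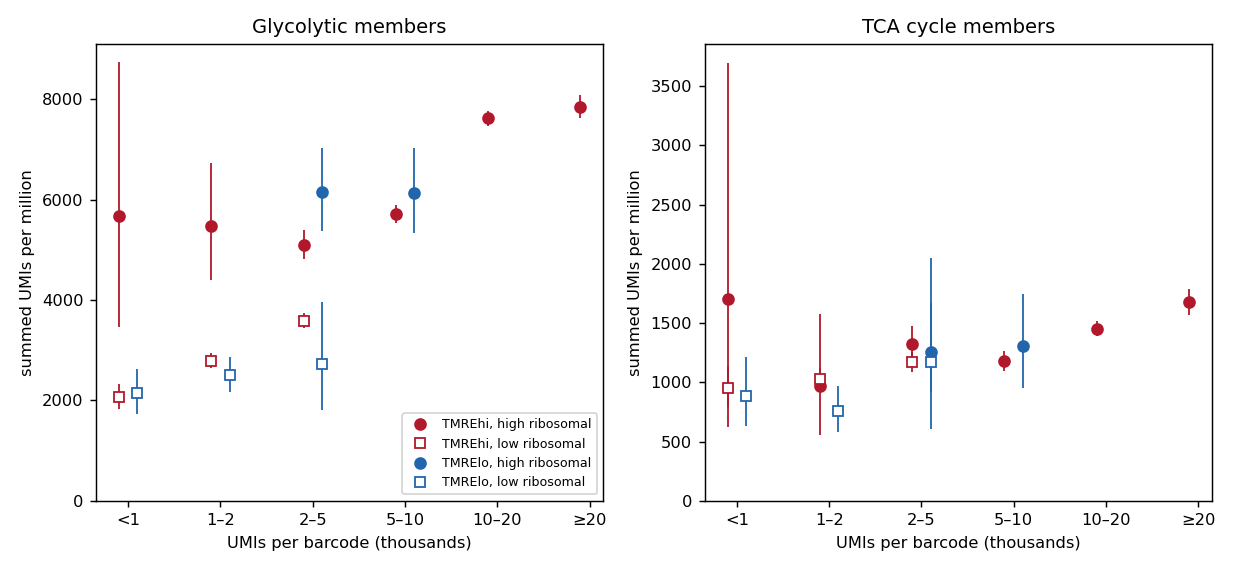
Summed CPM of glycolytic (left) and TCA cycle (right) members in bands of barcode depth, for high-ribosomal (filled circles) and low-ribosomal (open squares) barcodes of TMREhi (red) and TMRElo (blue), with exact Poisson 95% intervals and bands of under 4 barcodes left out. In high-ribosomal TMREhi barcodes the glycolytic sum stands at 5099 CPM at 2000 to 5000 UMIs and at 7844 CPM from 20000 UMIs, and the high-ribosomal glycolytic sums of TMRElo (6160 and 6138 CPM) lie above those of TMREhi in the 2 bands drawn for both.

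Across single retained TMREhi barcodes of at least 2000 UMIs (266 barcodes), the glycolytic share had a Spearman correlation of 0.51 with depth and of 0.30 with the TCA share. These are descriptions over barcodes of 1 library that share sequencing depth and culture. Within the 140 non-cycling of these barcodes the values were 0.43 and 0.28.

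Low-ribosomal barcodes had less transcript of all these groups than high-ribosomal barcodes, and the gap was widest in the sum of lower glycolysis, where Gapdh weighed most. In TMREhi, glycolytic members summed to 3158 CPM in low-ribosomal and 7010 CPM in high-ribosomal barcodes (0.450, 0.436–0.466), pyruvate entry members to 315 and 424 CPM (0.745, 0.665–0.833) and TCA members to 1096 and 1421 CPM (0.771, 0.726–0.819). Lower glycolysis stood at 1632 and 4611 CPM (0.354, 0.338–0.370), whereas glucose transport was higher in low-ribosomal barcodes, at 94.5 and 30.1 CPM (3.14, 2.37–4.17). Gapdh held 803 of the 2142 lower-glycolysis UMIs in low-ribosomal and 7955 of the 13478 in high-ribosomal barcodes. Upper glycolysis (0.631, 0.590–0.675) and the lactate genes (0.570, 0.527–0.617) were also lower, and within lower glycolysis Pkm was within the limit (0.748, 0.679–0.822). Of 28 tested members 4 were past the limit upward in low-ribosomal barcodes (Pfkp, Slc16a1, Ogdh, Dlst) and 16 downward, while 51.2% of all 3597 genes tested were upward and 24.6% downward, with a median log2 ratio of 0.64.

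Low-ribosomal barcodes also had more mitochondrial UMIs (17.7% against 3.79%), more Malat1 (10796 against 2242 CPM), fewer UMIs (median 1555 against 8357) and more of the 7 αβ lineage thymocyte markers (1166 against 245 CPM). The part of RNA quality and of other cells in the result was not tested. Gapdh stood at 612 and 2721 CPM (0.225, 0.209–0.242), and Mdh1 at 135 and 308 CPM (0.438, 0.371–0.515). On the other side stood Pfkp at 109 and 31.8 CPM (3.42, 2.62–4.50), Slc16a1 at 97.5 and 23.6 CPM (4.13, 3.06–5.62) and Ogdh at 131 and 45.8 CPM (2.86, 2.27–3.61). Both subunits of the pyruvate carrier were lower, Mpc1 at 34.3 and 118 CPM (0.291, 0.209–0.398) and Mpc2 at 39.6 and 95.1 CPM (0.417, 0.304–0.562). The pyruvate dehydrogenase subunits were within the limit, Pdha1 at 101 and 104 CPM (0.970, 0.785–1.19) and Pdhb at 91.4 and 74.6 CPM (1.23, 0.973–1.54).

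The TMRElo library showed the same order between its 117 low-ribosomal and 16 high-ribosomal barcodes. Glycolytic members summed to 2408 and 5902 CPM (0.408, 0.354–0.470) and TCA members to 830 and 1292 CPM (0.642, 0.489–0.844). Pfkp stood at 207 and 71.1 CPM (2.92, 1.19–8.62), Gapdh at 215 and 2157 CPM (0.0996, 0.0649–0.148) and Mdh2 at 44.5 and 284 CPM (0.156, 0.0523–0.392). There 4 of 22 tested members were past the limit upward and 14 downward, against 51.2% and 27.7% of all genes. Idh3a, at 66.7 and 35.6 CPM on 9 and 3 UMIs, Pdha1, at 81.5 and 47.4 CPM on 11 and 4 UMIs, and Cs, at 74.1 and 142 CPM on 10 and 12 UMIs, lay past the limit here in the direction opposite to their TMREhi ratio, with intervals that held 1. The other 15 members past the limit in TMRElo stood on the same side of 1 in TMREhi.

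**Figure D3:**
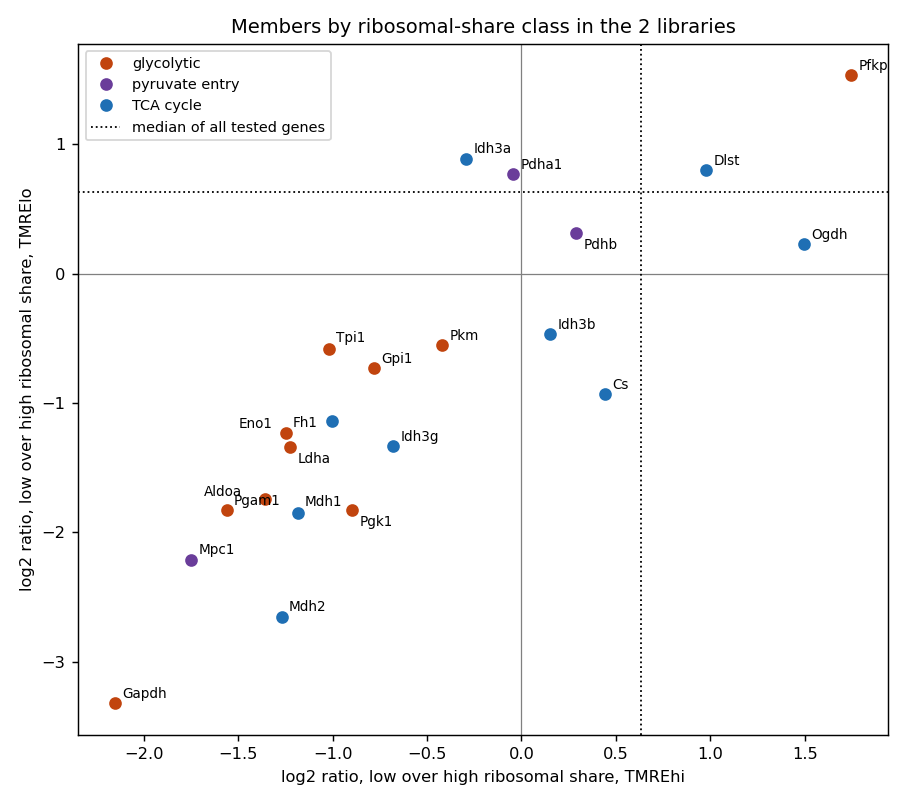
Log2 ratio of low-ribosomal over high-ribosomal barcodes for members tested in both libraries, TMREhi on the horizontal and TMRElo on the vertical axis, with 1 CPM added to both values and dotted lines at the medians of all tested genes. Gapdh (-2.15 and -3.32) lies lowest and Pfkp (1.74 and 1.53) highest in both libraries.

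The balance of glycolytic to TCA transcript differed between the ribosomal classes more than in the other divisions given here. There were 2.88 glycolytic UMIs per TCA UMI in low-ribosomal and 4.93 in high-ribosomal TMREhi barcodes, a ratio of 0.584 (0.545–0.626, normal approximation on the log scale here and below), and 2.90 and 4.57 in TMRElo (0.635, 0.471–0.856). In TMREhi Gapdh held 803 of the 4145 glycolytic UMIs in low-ribosomal and 7955 of the 20491 in high-ribosomal barcodes. The balance without Gapdh was not taken. Between the sorted fractions the balance was 4.95 in TMREhi and 4.41 in TMRElo (1.12, 0.925–1.36) over retained barcodes, and 2.88 and 2.90 (0.993, 0.794–1.24) within low-ribosomal barcodes. It was 4.85 in cycling and 5.18 in non-cycling barcodes (0.936, 0.870–1.01), and 5.01 in Vγ6-led and 5.04 in Vγ1-family-led barcodes (0.995, 0.857–1.15). Barcodes with a Maf UMI stood at 4.70 and those without at 5.12 (0.919, 0.858–0.984), but in non-cycling barcodes the order turned, at 5.34 and 5.06 (1.055, 0.933–1.19), and in low-ribosomal barcodes the interval held 1 (0.926, 0.797–1.08).

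Cycling barcodes of TMREhi had moderately more TCA transcript than non-cycling ones, and a higher sum of lower glycolysis that was mostly Gapdh. TCA members summed to 1506 CPM in the 130 cycling and 1230 CPM in the 187 non-cycling retained barcodes (1.22, 1.15–1.31), glycolytic members to 7303 and 6369 CPM (1.147, 1.113–1.181) and pyruvate entry members to 444 and 398 CPM (1.12, 0.990–1.26). Lower glycolysis was higher in cycling barcodes (4930 and 3957 CPM, 1.25, 1.2005–1.29), and upper glycolysis lower (1260 and 1424 CPM, 0.885, 0.828–0.945). Gapdh held 5720 of the 9330 lower-glycolysis UMIs in cycling barcodes and 2164 of the 4010 in non-cycling barcodes. Of the other genes of that role, Pgk1 (1.23, 1.09–1.40) and Pgam1 (1.23, 1.06–1.42) were higher and Eno1 lower. The sums without Gapdh were not taken for this division. Of 22 members tested, 2 were past 1.5-fold upward (Mdh2, Fh1) and 1 downward (Suclg1), against 15.8% and 11.8% of all genes, with a median log2 ratio of 0.07 over all genes.

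Gapdh stood at 3023 CPM in cycling and 2136 CPM in non-cycling barcodes (1.42, 1.35–1.49). Aldoa, the aldolase that splits the sugar, stood at 523 and 635 CPM (0.824, 0.745–0.911), Eno1 at 526 and 638 CPM (0.824, 0.746–0.912) and Gpi1 at 295 and 347 CPM (0.850, 0.743–0.9745), all 4 within the limit, with ratios on both sides of 1. In the TCA cycle Mdh2 stood at 329 and 215 CPM (1.53, 1.31–1.79) and fumarase (Fh1) at 76.1 and 48.4 CPM (1.57, 1.13–2.22). The succinyl-CoA ligase subunits parted: the shared subunit Suclg1 stood at 70.8 and 108 CPM (0.658, 0.507–0.856), and the GTP-forming partner Suclg2 at 38.0 and 16.8 CPM (2.27, 1.32–4.11), below the 50 CPM level.

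With cycling set at 2% of UMIs, the TCA log2 ratio was 0.068 (-0.025 to 0.161) in place of 0.29, and the glycolytic one turned to -0.086 (-0.128 to -0.043) from 0.20. The classes differed in depth, with medians of 15081 and 4856 UMIs. Between 5000 and 20000 UMIs, in 95 and 91 barcodes, the TCA ratio was 1.14 (1.05–1.23) and the glycolytic ratio 1.05 (1.02–1.09), with Suclg1 (63.0 and 103 CPM, 0.611, 0.443–0.842) the only one of 22 members past the limit, against 15.0% of all genes upward and 7.44% downward. Within Vγ1-family-led barcodes the ratios were 1.13 (1.04–1.22) and 1.05 (1.01–1.08), and 0 of 22 members were past the limit, against 14.3% and 8.84% of all genes. Among low-ribosomal barcodes, both ratios were 1.15 (1.08–1.22 glycolytic, 1.03–1.28 TCA), with 5 of 27 members past the limit upward and 1 downward, against 18.4% and 18.7% of all genes. There Slc16a1 stood at 136 CPM in cycling and 46.0 CPM in non-cycling barcodes (2.96, 1.91–4.75), and Slc2a3 at 29.4 and 85.0 CPM (0.346, 0.199–0.584).

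Barcodes led by the Vγ6 segment had lower glycolytic and TCA sums than those led by the Vγ1 family, unevenly from gene to gene. A barcode was assigned to the γ V group with the most UMIs. Vγ6 marks a fetal wave of cells that make IL-17, and the Vγ1 family here holds Tcrg-V1, Trgv2 and Tcrg-V3, whose near-identical sequences may share reads. In TMREhi glycolytic members summed to 5337 CPM in 39 Vγ6-led and 7318 CPM in 194 Vγ1-family-led barcodes (0.729, 0.686–0.775), TCA members to 1066 and 1453 CPM (0.733, 0.637–0.840) and pyruvate entry members to 434 and 428 CPM (1.01, 0.807–1.26). The median barcode stood at 3912 glycolytic CPM (quartiles 3191 and 5794) in the first group and 6157 CPM (4427 and 8556) in the second. The 10 Vγ4-led barcodes summed to 6676 glycolytic CPM (6179–7202) and 1559 TCA CPM (1324–1824), and the 7 Vγ5-led to 4931 CPM (4371–5544) and 1057 CPM (806–1360). Vγ5 and Vγ6 therefore stood low and Vγ4 near Vγ1, with 78.2% and 87.9% of the Vγ4 and Vγ5 UMIs in 5 barcodes each. Against Vγ1-family-led barcodes, 3 of 25 members were past the limit upward and 2 downward in Vγ4-led barcodes, against 13.4% and 15.3% of all genes, and 1 of 23 upward and 11 downward in Vγ5-led barcodes, against 20.4% and 18.7%. Among the latter 11, Ldha stood at 493 CPM in Vγ5-led and 1027 CPM in Vγ1-family-led barcodes (0.480, 0.318–0.696) and Aldoa at 299 and 569 CPM (0.526, 0.306–0.846), on 28 and 17 Vγ5-led UMIs. The top barcode of each gene held 64.3% of those Ldha UMIs, 35.3% of those Aldoa UMIs and 75.8% of the Vγ5-led Gapdh UMIs. Single barcodes thus weigh heavily in the Vγ5-led sums, which the counting intervals do not cover. TMRElo had 0 retained barcodes led by Vγ6 or Vγ5.

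**Figure D4:**
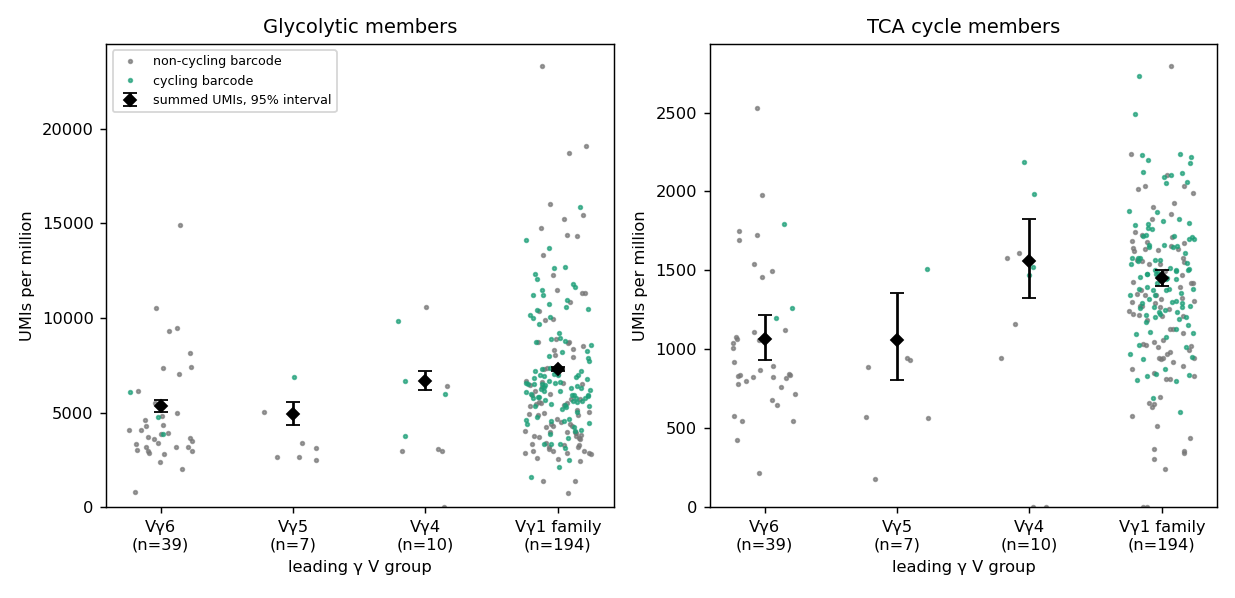
Glycolytic (left) and TCA cycle (right) CPM by leading γ V group in retained TMREhi barcodes, each dot 1 barcode (grey non-cycling, green cycling, spread sideways at random) and each diamond the summed UMIs with an exact Poisson 95% interval. The sums are 5337 (Vγ6), 4931 (Vγ5), 6676 (Vγ4) and 7318 CPM (Vγ1 family) for glycolysis, and single barcodes of the groups overlap.

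The groups differed in cycling (7.69% of Vγ6-led and 53.1% of Vγ1-family-led barcodes) and in depth (medians 4856 and 10496 UMIs). In non-cycling barcodes, 36 and 91, the glycolytic sums were 5421 and 7085 CPM (0.765, 0.713–0.821) and the TCA sums 1003 and 1333 CPM (0.753, 0.637–0.886). In non-cycling barcodes of 2000 to 10000 UMIs, 30 and 67, they were 5130 and 6019 CPM (0.852, 0.785–0.925) and 965 and 1204 CPM (0.802, 0.661–0.968). Gapdh weighed heavily in that glycolytic gap, with 193 of the 760 Vγ6-led and 825 of the 2415 Vγ1-family-led glycolytic UMIs. It stood at 1303 and 2056 CPM there (0.634, 0.539–0.742), and the sum without it was not taken. In low-ribosomal barcodes, 54 and 213, the glycolytic difference fell within counting error (3299 and 3581 CPM, 0.921, 0.808–1.05) and the TCA difference did not (878 and 1153 CPM, 0.762, 0.589–0.973). There 5 of 24 tested members were past 1.5-fold upward and 3 downward, against 19.8% and 18.6% of all genes, each on 16 or fewer Vγ6-led UMIs.

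The difference between Vγ6-led and Vγ1-family-led barcodes was uneven along the pathway. Over retained barcodes 7 of 22 tested members were past 1.5-fold downward in Vγ6-led barcodes and 1 upward, against 23.7% and 18.2% of all genes, and in non-cycling barcodes 7 of 23 downward and 2 upward, against 16.6% and 16.8%. In non-cycling barcodes Tpi1 stood at 160 and 347 CPM (0.459, 0.299–0.682), Gapdh at 1454 and 2492 CPM (0.583, 0.509–0.666), Pgk1 at 245 and 398 CPM (0.616, 0.435–0.852) and Pgam1 at 165 and 286 CPM (0.577, 0.377–0.856), a run of 4 successive enzymes of the pathway. The steps on either side of that run stood level or higher: Aldoa at 747 and 661 CPM (1.13, 0.923–1.38), Gpi1 at 388 and 359 CPM (1.08, 0.812–1.42) and Eno1 at 775 and 671 CPM (1.16, 0.947–1.40). Between 2000 and 10000 UMIs (medians 4833 and 6176) Aldoa stood at 770 and 576 CPM (1.34, 1.06–1.68) and Eno1 at 776 and 603 CPM (1.29, 1.02–1.61), with 20.2% and 21.7% of their Vγ6-led UMIs in 1 barcode. The run from Tpi1 to Pgam1 stood past the limit downward there too. Of the Vγ6-led UMIs, the top barcode of each gene held 23.5% for Tpi1, 22.3% for Gapdh, 13.3% for Pgk1 and 21.1% for Pgam1. In all, 6 of 20 members were downward in this range and 2 upward, against 15.5% and 17.6% of all genes. Pkm, pyruvate kinase, and Ldha lay between, at 467 and 601 CPM and at 718 and 1005 CPM.

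In the TCA cycle the malate dehydrogenases and Idh2 stood lowest. Mdh1 stood at 188 and 297 CPM (0.634, 0.425–0.920) and Mdh2 at 143 and 258 CPM (0.552, 0.348–0.843) in non-cycling Vγ6-led and Vγ1-family-led barcodes. Idh2 had 2 UMIs in the Vγ6-led and 85 in the Vγ1-family-led barcodes, 11.4 against 127 CPM (0.0899, 0.0107–0.335), with 11.8% of the latter in 1 barcode. Over all retained barcodes of these groups it had 4 and 303 UMIs (0.146, 0.0395–0.377), and between 2000 and 10000 UMIs 1 and 28 (0.0967, 0.00237–0.585). The NAD-dependent isocitrate dehydrogenase subunits did not share this gap: Idh3a stood at 57.0 and 56.7 CPM, Idh3b at 103 and 112 CPM and Idh3g at 57.0 and 83.5 CPM. Suclg1 was higher at 160 and 99.9 CPM (1.60, 0.989–2.52), Cs was near level at 68.4 and 70.1 CPM, and Pfkp stood at 79.8 and 40.3 CPM on 14 and 27 UMIs (1.98, 0.961–3.91).

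**Figure D5:**
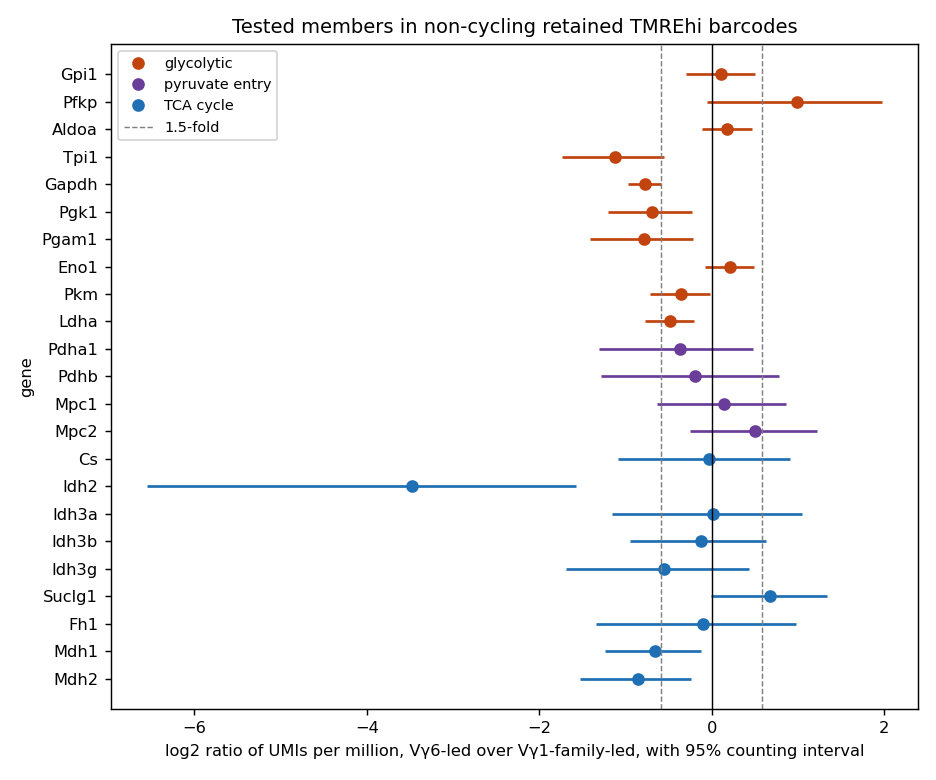
Log2 ratio of CPM in Vγ6-led over Vγ1-family-led barcodes for the 23 members tested in non-cycling retained TMREhi barcodes (36 and 91), with exact 95% counting intervals and dashed lines at 1.5-fold. Tpi1, Gapdh, Pgk1, Pgam1, Mdh1, Mdh2 and Idh2 lie left of the limit with intervals below 0, and Aldoa and Eno1 lie right of 0 with intervals that hold it.

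In summed UMIs, barcodes with a Maf UMI had a little less glycolytic transcript than those without, but the median barcode was near level. Maf encodes a transcription factor required by γδ T cells that make IL-17. In TMREhi glycolytic members summed to 6415 CPM in the 128 barcodes with a Maf UMI and 7380 CPM in the 189 without (0.869, 0.845–0.894), TCA members to 1364 and 1442 CPM (0.946, 0.888–1.01) and pyruvate entry members to 431 and 426 CPM (1.01, 0.903–1.13). Their median depths were alike, at 7564 and 7421 UMIs. The median barcode stood at 5430 glycolytic CPM with a Maf UMI (quartiles 3694 and 6969) and at 5325 CPM without (2972 and 7947). In non-cycling barcodes these medians were 4400 and 3635 CPM, and in low-ribosomal barcodes 2354 and 2430 CPM. Of 22 members tested, 0 were past 1.5-fold either way, against 4.55% of all genes upward and 4.17% downward.

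The gap was widest among the lactate genes, at 869 and 1160 CPM (0.749, 0.695–0.808). Ldha stood at 805 and 1070 CPM (0.752, 0.695–0.813), Tpi1 at 257 and 360 CPM (0.714, 0.621–0.820) and Pgam1 at 257 and 334 CPM (0.770, 0.668–0.885), while Pkm was level at 581 and 580 CPM. Members below the 50 CPM level went both ways: Bpgm, the bisphosphoglycerate mutase, stood at 35.5 and 17.1 CPM (2.07, 1.26–3.44), the hexokinase Hk1 at 28.1 and 14.8 CPM (1.90, 1.10–3.32) and Slc16a1 at 14.9 and 28.9 CPM (0.514, 0.282–0.898). The glycolytic ratio was 0.878 (0.851–0.906) within Vγ1-family-led barcodes, 0.909 (0.865–0.955) in non-cycling barcodes and 0.894 (0.827–0.966) in low-ribosomal barcodes. Past the limit were 0 of 23 members in the first of these (4.1% of all genes upward, 2.66% downward), 1 of 21 upward and 3 downward in the second (8.7% and 11.9%), and 1 of 28 each way in the third (9.22% and 10.1%). Pgam1 was among them in non-cycling barcodes, at 204 and 311 CPM (0.655, 0.504–0.848). The mean over barcodes, which weights each equally, gave a log2 ratio of -0.0088 in place of -0.20. Low-ribosomal barcodes were 1.56% of those with a Maf UMI and 23.8% of those without, and within high-ribosomal barcodes alone, 126 and 144, the log2 ratio was -0.22 (-0.26 to -0.18). Whether a barcode shows a Maf UMI depends on its depth, and the level of free Maf RNA was not measured.

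Other genes of these pathways, not among the 42, were followed as lists. Between retained TMREhi and TMRElo barcodes, where 17.8% of all genes were past 1.5-fold upward and 35.1% downward, 2 of 9 further TCA and respiratory complex II genes were upward and 3 downward. Glud1, the glutamate dehydrogenase that feeds oxoglutarate into the cycle, was lower at 63.3 and 142.8 CPM (0.444, 0.262–0.809). The same list held Sdhb, the iron-sulphur subunit of succinate dehydrogenase, at 203 and 76.1 CPM (2.67, 1.35–6.22) and Sdha, its flavoprotein subunit, at 97.1 and 114 CPM. Of 4 pentose phosphate genes 2 were upward, Pgls at 257 and 124 CPM (2.08, 1.21–3.92) and Taldo1 at 206 and 105 CPM (1.97, 1.09–3.97). Of 7 hypoxia-response and regulator genes 3 were upward and 3 downward, among them Mif, a cytokine gene induced by hypoxia, at 1498 and 818 CPM (1.83, 1.48–2.29), and Hif1a at 106 and 152 CPM (0.698, 0.423–1.24) was within the limit. Of 3 further pyruvate genes 0 were upward and 1 downward: Pdk1, the kinase that switches off pyruvate dehydrogenase, stood at 30.3 and 76.1 CPM (0.398, 0.193–0.9502). The 1 tested gene of the remaining glycolysis list, the transporter chaperone Bsg, stood at 214 and 343 CPM (0.624, 0.446–0.899).

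In the other divisions single genes of these lists stood out. In low-ribosomal against high-ribosomal TMREhi barcodes Pdk1 stood at 123 and 27.0 CPM (4.57, 3.47–6.05), Sdha at 174 and 98.9 CPM (1.76, 1.47–2.10) and Mif at 256 and 1501 CPM (0.171, 0.152–0.191). In Vγ6-led against Vγ1-family-led barcodes Tkt, the transketolase of the pentose phosphate pathway, stood at 121 and 283 CPM (0.425, 0.273–0.634) and Mif at 771 and 1618 CPM (0.477, 0.404–0.559). Ero1l, an oxidase of the endoplasmic reticulum on the hypoxia-response list, stood the other way at 246 and 48.5 CPM (5.07, 3.57–7.13). These groups differed in cycling share (7.69% and 53.1%). In cycling over non-cycling retained TMREhi barcodes Tkt had a ratio of 1.25 (1.07–1.47), Mif 1.42 (1.33–1.52) and Ero1l 0.437 (0.329–0.580). The part of cycling in these Vγ6 gaps was not tested.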

How the data were processed

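The authors deposited raw UMI counts per gene and barcode, from Cell Ranger 3.0.2 per the file headers, with genome build mm10 per the submitters' processing notes. Annotation release and cell-calling settings were not given in the sources used here, and embryos per library likewise. The 42 members and all lists were chosen with earlier results of these data known. All 42 members were named, and of other lists up to 4 genes of highest mean CPM. UMIs were summed per class and scaled to 1000000 (CPM). Intervals of CPM are exact Poisson and those of ratios exact binomial (Clopper-Pearson), at 95%. The ratio intervals alone were tried on simulated Poisson counts without differences between barcodes, which checks the calculation and not the spread between cells. PCR and cell-to-cell variation lie outside all these intervals. Classes used 85 ribosomal protein and 97 cell cycle genes. Near the class limits lay 38 TMREhi and 6 TMRElo barcodes (12 to 18% ribosomal) and 27 and 4 (0.8 to 1.2% cycling). Doublets were neither called nor removed, and the deepest 5 barcodes were left out as an alternative. Aldoa has 2 identifiers, which were summed. Gapdh, Aldoa, Eno1, Pgk1, Pgam1, Tpi1 and Ldha have near-identical copies, and Eno1b is counted apart from Eno1, so their counts are uncertain where reads were shared. Of the promoters, 40 of 42 were matched by symbol. Software was matplotlib 3.10.9, scipy 1.17.1, pandas 2.3.3 and numpy 2.4.6 under Python 3.11.15.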

Additional observations from a re-analysis of the deposited data

Results flagged for a closer look

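Citrate synthase (Cs) stood in opposite order between the fractions in the barcode classes, with a log2 ratio of TMREhi over TMRElo of 0.67 in low-ribosomal and -0.70 in high-ribosomal barcodes. In low-ribosomal barcodes it had 156 and 10 UMIs, 119 and 74.1 CPM (1.60, 0.849–3.41). In high-ribosomal barcodes it had 255 and 12 UMIs, 87.2 and 142 CPM (0.613, 0.345–1.203). Both intervals held 1, each class had 1 library per fraction, and the difference between the classes was not tested.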

How the results depend on the processing

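Values are log2 ratios of summed CPM. Of 94 alternatives 90 kept the direction and 4 turned it. Of 98 in all, counts of members included, 65 lay within the counting interval of the reported value, or within 1.5-fold of it for a count. Wide intervals let large moves pass: TCA members between the fractions (0.21) gave 0.064 (-0.21 to 0.35) without Mdh1. For glycolytic members between the fractions (0.38), all deposited barcodes gave 0.66, 1000 genes with 5% mitochondrial UMIs 0.19, high-ribosomal barcodes 0.25, low-ribosomal non-cycling barcodes 0.24, Gapdh left out 0.25, and high-ribosomal barcodes of 2000 to 10000 UMIs -0.15, where TCA members (0.21) gave -0.072. A total without ribosomal and mitochondrial UMIs gave 0.53; it shifts every ratio between the fractions by 0.15, and then 13 of 28 members were past the limit upward and 3 downward, and Eno1 and Idh3g changed sign. For cycling, glycolytic members (0.20) gave 0.12 on that total, 0.42 as a mean over barcodes, 0.34 with a limit of 0.5%, -0.086 with 2%, 0.066 in Vγ1-family-led barcodes and 0.070 at 5000 to 20000 UMIs; TCA members (0.29) gave 0.44 with 0.5%, 0.068 with 2%, 0.17 in Vγ1-family-led barcodes and 0.19 at that depth, and on the other total, which shifts these ratios by -0.08, no member was past the limit upward and 2 of 29 were downward. For Maf, glycolytic members (-0.20) gave -0.0088 as a mean over barcodes, -0.14 in non-cycling, -0.16 in low-ribosomal barcodes and -0.28 thinned to 2000 UMIs, and TCA members (-0.08) -0.22 in non-cycling barcodes and -0.41 thinned. For Vγ6, glycolytic members (-0.46) gave -0.23 in non-cycling barcodes of 2000 to 10000 UMIs and -0.12 in low-ribosomal barcodes. For the ribosomal class, the other total gave -1.38 (glycolytic, -1.15) and -0.61 (TCA, -0.37), a shift of -0.23, and TMRElo -1.29 and -0.64. Members past the limit between the fractions numbered 11, 18 at 20 CPM, 22 with no limit on level and 3 at 2-fold. The causes of these changes were not tested. Alternatives on Rag1, cycling and depth windows within classes, on Vγ1-family-led barcodes and on TMRElo were chosen after seeing the data. No paired analysis was possible because each group has 1 library. A level under 28.55 CPM (3 UMIs) could not be read in TMRElo.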
